A study of Brassica napus with 355 samples.

Results

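The cold response genes described here are 4 Brassica napus identifiers, BraA02g42080R, BraA05g15390R, BraA08g22810R and Bo7g114970, out of 106126 identifiers in the count tables. They were taken from the list that the study's supplement gives under the Gene Ontology term response to cold for accession Gr. That list was drawn from genes called WL-responsive in Gr and grouped by their WL minus WW response scores, so the response in Gr chose the members and is given below as a description only. The network behind the groups used the scores of the accessions together, apart from Qu and Ze, so the responses of nearly all accessions tested below went into the grouping and are not separate from the choice. Diel profiles under WW and levels among accessions were not themselves used by the rule, but the WW value at each time point enters the score. The supplement's labels for the group of this list differ in direction, so the signs used here are those of the Gr estimates below. A gene chosen as higher under WL at ZT7 and lower at ZT19 tends to be low at ZT7 and high at ZT19 under WW. The WW profiles are therefore not separate from the choice either.

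The tip of the youngest leaf was taken from plants held water-limited (WL, 20% of soil water capacity) or well-watered (WW, 100%). Samples were taken at ZT1, ZT7, ZT13 and ZT19, where ZT is hours after dawn. The 16 accessions were Aburamasari (Ab), Alaska_BnASSYST_004 (Al), Aviso (Av), Bristol_BnASSYST-031 (Br), Campari_BnASSYST-075 (Ca), DH12075 (DH12), DH2075 (DH20), Darmor (Da), Gruener Schnittrohl_BnASSYST-219 (Gr), Musette_BnASSYST-056 (Mu), NK_Nemax_BnASSYST-084 (Ne), Quantum NE011 (Qu), Sensaton_NZ_BnASSYST-414 (Se), Stellar DH JZ111 (St), Yudal_BnASSYST-241 (Yu) and Zephir_BnASSYST-068 (Ze). No plant was exposed to cold as a treatment, and the sources give differing day temperatures and day lengths for the growth of these plants. Each library came from a plant described as an individual replicate, and the tissue was bulk leaf, in which fewer cells of a type and less RNA per cell cannot be told apart. Libraries numbered 172 for WL and 182 for WW, in groups of accession, treatment and time point that held at most 3, with 24 groups of 2 libraries and 3 of 1.

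Cold acclimation in Arabidopsis, from which the annotation of these genes was carried over by orthology, runs in part through the CBF/DREB transcription factors, whose induction by low temperature is gated by the circadian clock. Cold and water shortage share part of their target genes, because freezing and drying both withdraw water from cells, and abscisic acid acts in both. Genes under the term response to cold therefore include regulators, protective proteins and enzymes that can be expressed at ordinary temperature. The term is the only annotation of the 4 genes in the sources used here, so no role is given to any of them.

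By their identifiers, BraA02g42080R, BraA05g15390R and BraA08g22810R lie on chromosomes A02, A05 and A08 of the BnA subgenome, which descends from B. rapa, and Bo7g114970 lies on chromosome C7 of the BnC subgenome, which descends from B. oleracea. 0 of the 4 identifiers were found in the RefSeq gene table at hand. All 4 had values in both kinds of table of all 16 accessions and passed the filter on low counts in each of them, 60 of 60 tests over the 15 accessions other than Gr.

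Total counts ranged from 3216762 to 35177558 per library (median 18332048). Before the results, 32 libraries in 13 accessions are to be named as standing apart. Each correlated best with the mean of another time point of its own accession. The means pooled WL and WW libraries, and the genes were those varying most between time points. A treatment difference in timing can therefore enter such a match. 6 of the 32 libraries were from Ab, 5 from Ca and 4 from Qu, and Gr, Av and Se had 0. Tests over accessions were also run without these 32 libraries. For some of the values below that rest on such a library, the value without it is given. The identifiers carry no gene names, so markers of leaf were not examined here.

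The 4 genes fell into a high and a low pair. BraA02g42080R had a median of 6.12 log2 FPKM in WL libraries and 6.18 log2 FPKM in WW libraries, with ranges of 5.61 to 7.12 and 5.46 to 7.06. BraA08g22810R had medians of 6.10 log2 FPKM in WL and 6.13 log2 FPKM in WW, with ranges of 5.33 to 7.00 and 5.04 to 7.30. These 2 genes thus stood at nearly the same level per transcript length in both treatments.

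BraA05g15390R was lower, with a median of 3.38 log2 FPKM in WL libraries (1.93 to 5.38) and 3.76 log2 FPKM in WW libraries (1.72 to 5.79). Bo7g114970 was the lowest, with a median of 2.08 log2 FPKM in WL libraries (−2.28 to 3.46) and 2.00 log2 FPKM in WW libraries (−1.63 to 3.77). The 2 lowest values of Bo7g114970 rested on 2 counts each, in a WL library of Yu and a WW library of DH20, both at ZT19, with total counts of 4950879 and 3216762. Counts behind the values of BraA05g15390R ran from 31 to 916 per library, so depth limits both low genes more than the high pair.

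Some reads of all 4 genes were shared with other places in the reference. The count of BraA02g42080R was not a whole number in 93.2% of libraries and that of BraA08g22810R in 94.6%, which is how fractional counting of multiply aligned reads appears, against 51.4% for Bo7g114970 and 14.7% for BraA05g15390R. A single shared read makes a count not whole, and counts of the high pair were larger, so the share of reads that were shared was not measured and the division of these levels among near copies is uncertain.

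**Figure D1:**
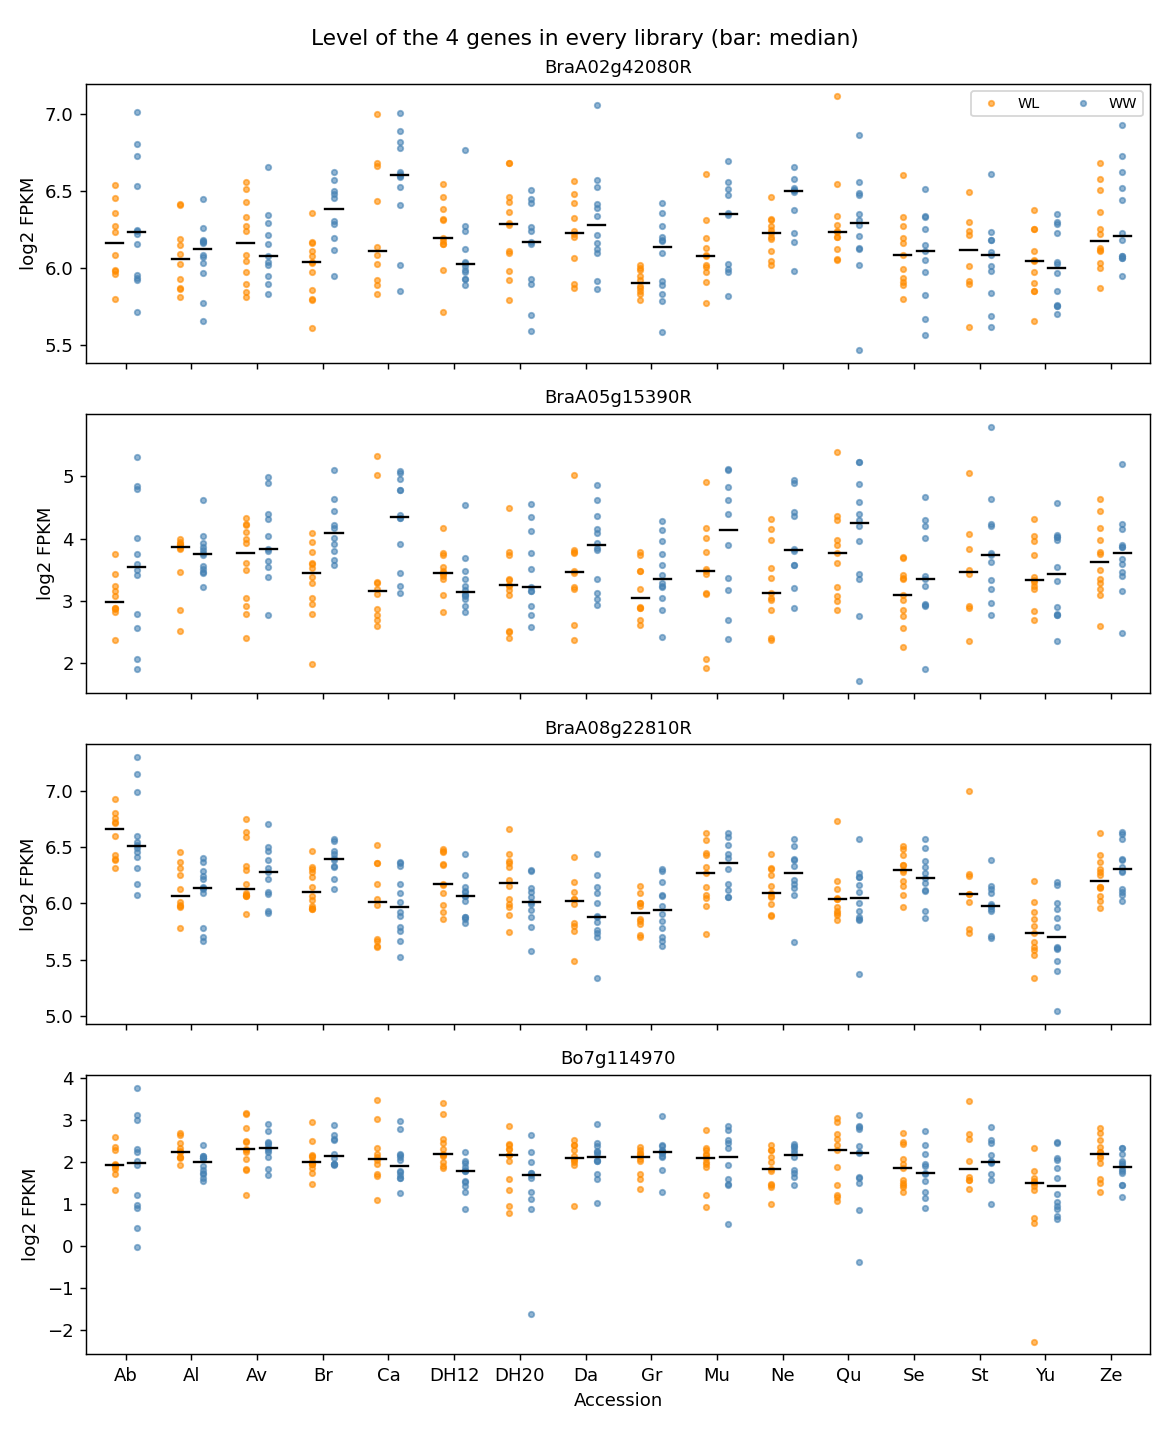
Level of each gene as deposited log2 FPKM (vertical axis) in every library of the 16 accessions (horizontal axis), with WL in orange to the left of WW in blue and a black bar at the median. BraA08g22810R is highest in Ab and lowest in Yu in both treatments, and the lowest 2 points of Bo7g114970 are the libraries of Yu and DH20 with 2 counts each.

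Accessions differed in the WW level of 3 of the 4 genes. Over the 15 accessions other than Gr, the limma F test on library log2 CPM (14 degrees of freedom) gave an adjusted p of 3.7e-23 for BraA08g22810R, 1.5e-08 for BraA02g42080R and 0.0018 for BraA05g15390R, while Bo7g114970 (adjusted p = 0.035) did not pass the threshold of 0.01. Such differences were common, since 87.8% of the 67913 genes tested passed. Mapping of each accession's alleles to the reference and the level of the transcript cannot be told apart in these values.

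BraA08g22810R averaged 6.60 ± 0.21 log2 FPKM in Ab under WL (SD, n = 10) and 6.59 ± 0.38 in Ab under WW (n = 12). At the other end, it averaged 5.75 ± 0.24 log2 FPKM in Yu under WL (n = 11) and 5.72 ± 0.33 in Yu under WW (n = 12). Ab stood above the accession next in order, Se, by 1.54 SD of its own WL libraries, and under WW the gap from Ab to the next, Br, was under 1 SD. Under WW, none of the 15 steps between neighbouring accessions in the order exceeded the SD of the libraries of the higher one. That SD is the spread of single libraries, and neighbouring accessions were not tested against each other.

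BraA02g42080R ran from 6.31 ± 0.30 log2 FPKM in Qu (n = 11) to 5.91 ± 0.08 in Gr (n = 10) under WL, and from 6.56 ± 0.34 in Ca to 6.00 ± 0.24 in Yu under WW (n = 12 each). BraA05g15390R ran from 3.77 ± 0.74 log2 FPKM in Qu (n = 11) to 3.05 ± 0.38 in Ab (n = 10) under WL, and from 4.28 ± 0.70 in Ca to 3.29 ± 0.46 in DH12 under WW (n = 12 each). Bo7g114970 ran from 2.37 ± 0.49 log2 FPKM in DH12 to 1.09 ± 1.22 in Yu under WL (n = 11 each), and from 2.31 ± 0.35 in Av to 1.39 ± 1.12 in DH20 under WW (n = 11 each). The SD within an accession spans the time of day as well as the replicates, and for BraA05g15390R and BraA02g42080R no step between neighbours exceeded it in either treatment.

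For BraA05g15390R the call among accessions was lost with the replicate number as a block (adjusted p = 0.028) and without the libraries matching another time point (adjusted p = 0.15 over 12 accessions). It was also lost without each replicate in turn, with adjusted p of 0.083, 0.020 and 0.020 for replicates 1, 2 and 3.

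All 4 genes varied over the day under WW. In the limma F test over 15 accessions (3 degrees of freedom, accession as a fixed term), the adjusted p was 7.5e-09 for BraA05g15390R, 7.9e-08 for BraA08g22810R, 2.9e-07 for BraA02g42080R and 1.6e-04 for Bo7g114970. The background was high, with 55.7% of genes tested called. Each gene had its lowest mean at ZT7 and its highest at ZT19, in the dark. The choice of members leans towards this shape, because WW values enter the response scores.

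BraA05g15390R had the widest mean profile. Under WW its accession means averaged 3.40, 3.30, 4.16 and 4.27 log2 FPKM at ZT1, ZT7, ZT13 and ZT19, with SDs between accessions of 0.37, 0.40, 0.46 and 0.55 (n = 15). It was highest at ZT13 in 8 and at ZT19 in 7 of the 15 accessions, and lowest at ZT1 in 7 and at ZT7 in 8. The difference between its highest and lowest time point under WW had a median of 1.22 log2 FPKM, from 0.68 up to 2.16 in Ab, or 2.15 in Ab without the libraries matching another time point.

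Under WL the same gene averaged 3.18, 3.34, 3.69 and 3.46 log2 FPKM at ZT1, ZT7, ZT13 and ZT19, with SDs of 0.42, 0.38, 0.42 and 0.42 (n = 15). Its profile under WL did not pass the threshold (limma F test, adjusted p = 0.017), where 51% of genes did. The median span between its highest and lowest time point was 0.90 log2 FPKM under WL. The WL profile passed the threshold in other settings, at an adjusted p of 0.0021 without the libraries matching another time point, 4.6e-04 without St, 0.0074 without replicate 2 and 0.0045 without replicate 3.

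Bo7g114970 averaged 2.00, 1.94, 2.24 and 1.87 log2 FPKM at ZT1, ZT7, ZT13 and ZT19 under WL, against 1.71, 1.60, 2.11 and 2.22 log2 FPKM under WW (n = 15 each). SDs between accessions were 0.29 to 0.58 under WL and 0.26 to 0.58 under WW. It was highest at ZT13 in 9 accessions under WL, against 6 under WW, and at ZT19 in 1 under WL, against 7 under WW. The WL profile did not pass (limma F test, adjusted p = 0.094), and its WW call was lost without replicate 1 (adjusted p = 0.042).

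The high pair had shallow profiles that passed in both treatments. BraA02g42080R averaged 6.27, 6.00, 6.08 and 6.31 log2 FPKM at ZT1, ZT7, ZT13 and ZT19 under WL, against 6.23, 6.01, 6.22 and 6.44 under WW (n = 15 each). BraA08g22810R averaged 6.29, 6.01, 5.99 and 6.31 log2 FPKM under WL, against 6.18, 5.96, 6.07 and 6.39 under WW (n = 15 each). The adjusted p under WL was 1.3e-06 for BraA02g42080R and 5.5e-07 for BraA08g22810R (limma F test).

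Most accessions had this shape. BraA08g22810R at ZT19 stood above its own mean over the day in 15 of 15 accessions in each treatment, and at ZT7 below it in 15 of 15 under WW. BraA02g42080R was lowest at ZT7 in 10 accessions under WL and 12 under WW, and highest at ZT19 in 10 under each. Median spans were 0.41 log2 FPKM under WL and 0.46 under WW for BraA02g42080R, and 0.40 under WL and 0.49 under WW for BraA08g22810R.

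**Figure D2:**
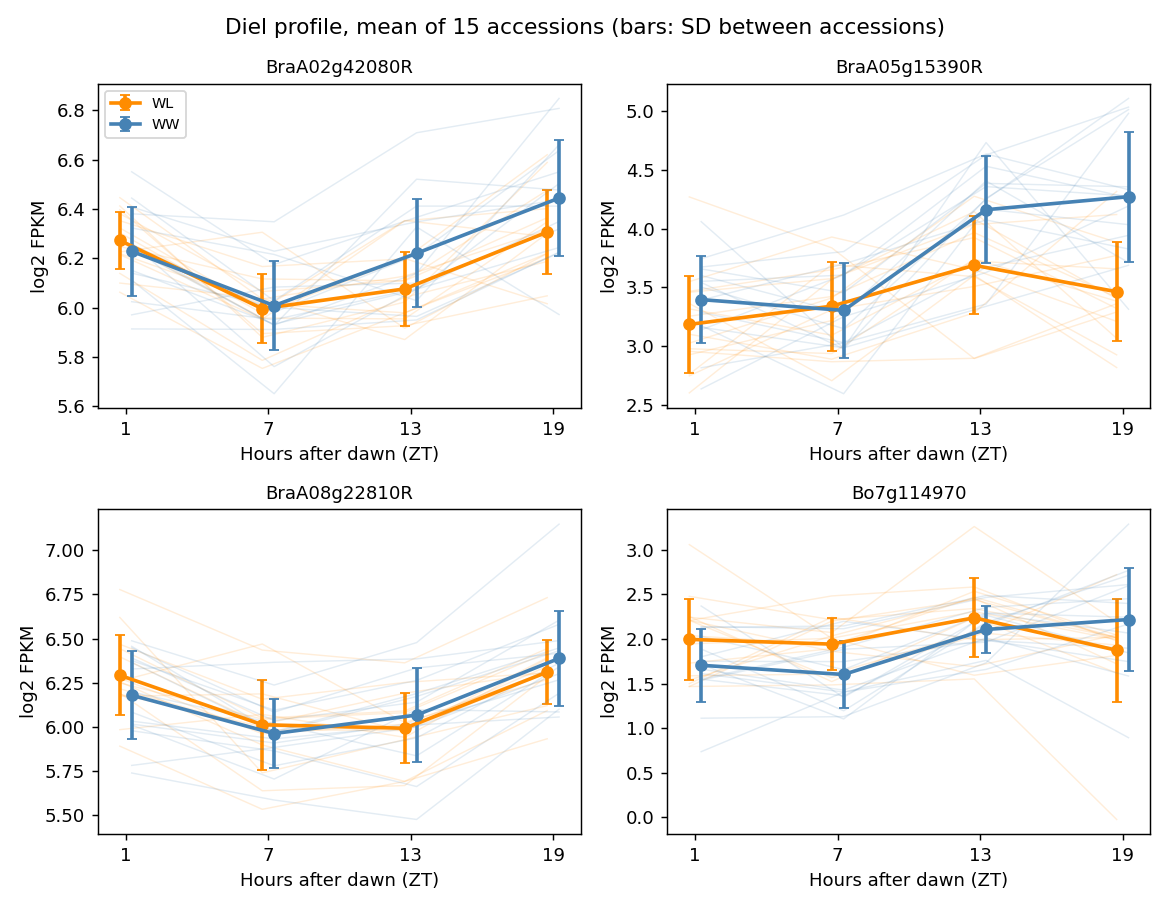
Mean log2 FPKM (vertical axis) of each gene at ZT1, ZT7, ZT13 and ZT19 (horizontal axis, hours after dawn) over 15 accessions without Gr, WL in orange and WW in blue, with bars for the SD between accessions and thin lines for single accessions. BraA05g15390R at ZT19 averages 3.46 in WL and 4.27 in WW, while the lines of BraA02g42080R and BraA08g22810R lie close together.

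Within single accessions, fits with fewer libraries called little of this. edgeR's quasi-likelihood test with Benjamini-Hochberg adjustment called 1 of 60 WW profiles at 0.01, where 4.68% of all tests in the same accessions were called, and 1 of 60 WL profiles, where 5.55% were. At an adjusted p of 0.05 it called 9 WW profiles and 2 WL profiles of 60, with backgrounds of 11.7% and 12.7%.

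The WW profile called was BraA05g15390R in Se (edgeR adjusted p = 0.0035), where 7.99% of genes were called. Its WW libraries of Se had 2.94, 3.35 and 3.23 log2 FPKM at ZT1 and 2.92, 1.91 and 2.96 at ZT7. They had 4.29, 4.00 and 4.20 log2 FPKM at ZT13 and 3.41 and 4.66 at ZT19. All libraries from ZT13 and ZT19 lay above all from ZT1 and ZT7, narrowly, with 3.41 against 3.35 at the closest. The share of all genes in Se with such an order was not computed. The call was lost without each replicate in turn, with adjusted p of 0.089, 0.018 and 0.046 for replicates 1, 2 and 3.

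The WL response of the members was chosen on Gr, where it had the same signs for all 4 genes. In Gr the edgeR estimate of WL minus WW was below 0 at ZT1, above 0 at ZT7 and below 0 at ZT13 and ZT19 for each gene. The differences at ZT19 were −0.41 ± 0.14 for BraA02g42080R, −0.86 ± 0.30 for BraA05g15390R, −0.31 ± 0.15 for BraA08g22810R and −0.70 ± 0.28 for Bo7g114970 (log2, ± SE). At ZT7 they were 0.20 ± 0.16, 0.51 ± 0.34, 0.36 ± 0.16 and 0.48 ± 0.31 (log2, ± SE) in the same order. Averaged over the day, the estimates were −0.16, −0.28, −0.04 and −0.22, in the same order.

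The libraries of Gr at ZT19 lay apart for all 4 genes. BraA02g42080R had 5.92, 5.88 and 5.85 log2 FPKM in WL and 6.20, 6.42 and 6.17 in WW, and BraA05g15390R had 3.48, 3.48 and 2.61 in WL and 3.76, 4.28 and 4.14 in WW. BraA08g22810R had 5.82, 6.09 and 6.00 log2 FPKM in WL and 6.19, 6.29 and 6.31 in WW, and Bo7g114970 had 2.00, 2.19 and 1.36 in WL and 2.22, 3.08 and 2.23 in WW. For all 4 genes, every WL library of Gr at ZT19 was below every WW library, as in 6.59% of genes in Gr whose mean log2 FPKM exceeded 0.

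At ZT7 the order in Gr was the other way for 2 genes. BraA08g22810R had 6.00 and 6.15 log2 FPKM in WL, against 5.70, 5.84 and 5.62 in WW. Bo7g114970 had 2.27 and 2.20 log2 FPKM in WL, against 1.27, 1.80 and 2.11 in WW. For these genes the WL libraries lay above the WW libraries, as in 17.6% of such genes in Gr at ZT7, whereas those of BraA02g42080R and BraA05g15390R overlapped.

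**Figure D3:**
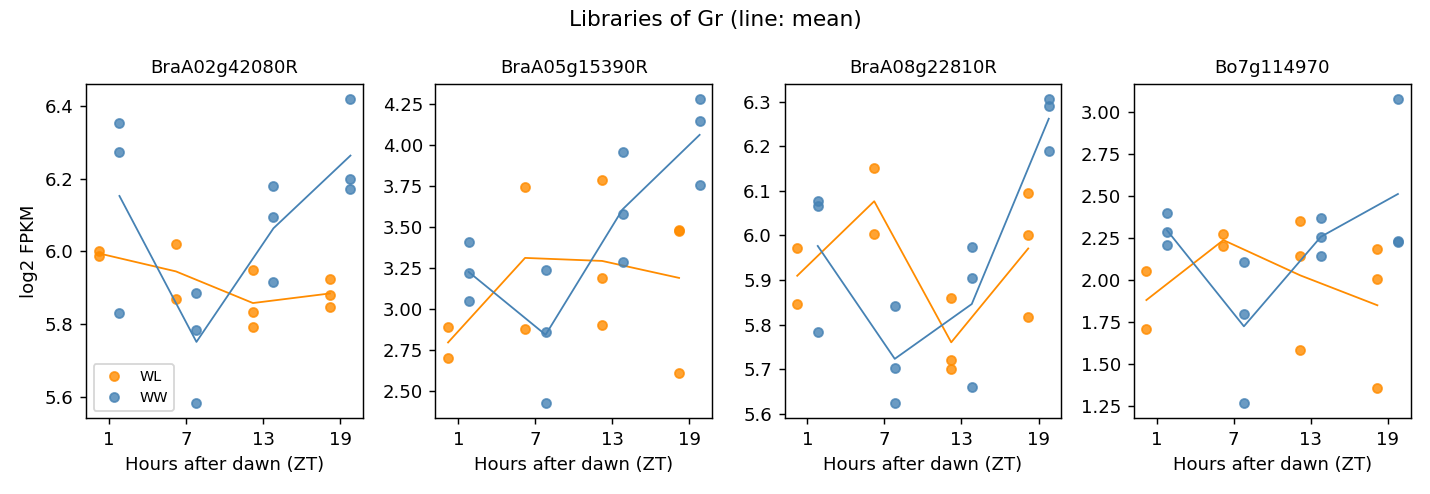
log2 FPKM (vertical axis) of each gene in the libraries of Gr at ZT1, ZT7, ZT13 and ZT19 (horizontal axis, hours after dawn), WL in orange left of WW in blue, with lines through the means. At ZT19 every WL point lies below every WW point in all 4 panels.

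In the other accessions this set of signs was not general. The sequence lower, higher, lower, lower at ZT1, ZT7, ZT13 and ZT19 occurred for BraA05g15390R in 4 of 15 accessions, for BraA08g22810R in 2, for BraA02g42080R in 1 and for Bo7g114970 in 0. Over all genes tested it occurred in 4.68% of gene and accession pairs.

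BraA05g15390R fell under WL in the shared test over the 15 other accessions. Its level averaged over the day was lower by −0.36 ± 0.08 (log2 CPM, WL minus WW, ± SE; 95% interval −0.52 to −0.20), with 13 accessions lower and 2 higher (limma, adjusted p = 0.0015). Of all genes tested, 23.3% were called in this test and 12% were called lower. Response scores of nearly all these accessions went into the choice of members, so this test is not separate from that choice. The accession values ran from −0.88 in Ca and −0.85 in Br to 0.02 in Yu and 0.24 in DH12. The only WL library of Ca at ZT13 and both WW libraries of Br at ZT13 matched another time point. Neither accession therefore has a level difference without such libraries.

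The other 3 members did not pass. The level difference over 15 accessions was −0.06 for BraA02g42080R (95% interval −0.15 to 0.03), 0.00 for BraA08g22810R (−0.08 to 0.08) and 0.11 for Bo7g114970 (−0.04 to 0.26), on the log2 CPM scale. Their adjusted p values were 0.28, 0.94 and 0.26 (limma). The median of the 4 members was −0.03, beside 0.00 over all 67913 genes.

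The fall of BraA05g15390R was widest at ZT19. Its accession means at ZT19 had a lowest value of 2.82, a median of 3.38 and a highest of 4.32 log2 FPKM in WL, against 3.31, 4.26 and 5.11 in WW (n = 15 each), so the groups overlapped as a whole. Paired within accessions, WL was lower by −0.80 ± 0.13 (log2 CPM, ± SE; 95% interval −1.09 to −0.52), with 14 accessions lower and Ze higher (limma, adjusted p = 0.0024). At ZT19, 3.16% of genes were called and 1.93% were called lower. The genes behind these shares were not chosen on response scores, whereas this gene was, and it was also lower at ZT19 in Gr. The test at ZT19 is therefore not separate from the choice of members.

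The size of this difference ranged widely, and whether accessions differed at ZT19 was not tested. It was −1.95 in Mu, −1.63 in Ab and −1.20 in Se, and −0.02 in St and 0.16 in Ze (log2 CPM). In Mu the WL libraries had 1.93, 3.11 and 4.16 log2 FPKM at ZT19, against 4.83, 5.09 and 5.11 in WW. In Ab they had 3.25, 3.75 and 3.08 log2 FPKM in WL, against 4.84, 5.31 and 4.79 in WW.

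In both, WL and WW libraries did not overlap. WL replicate 2 at ZT19 matched another time point in each of them, and without it the difference in mean log2 FPKM was −1.97 in Mu and −1.81 in Ab, against −1.95 and −1.62 with it.

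WL libraries lay below WW libraries without overlap at ZT19 in 5 of 15 accessions for BraA05g15390R, 6 for Bo7g114970, 3 for BraA02g42080R and 2 for BraA08g22810R, where 7.63% of gene and accession pairs did, counting genes whose mean log2 FPKM exceeded 0. Without the libraries matching another time point, a setting added after the data were seen, the numbers were 6, 6, 3 and 2 of 14 accessions in the same order, beside 10.6% of pairs. For Bo7g114970, WL libraries lay above WW libraries without overlap in 6 of 15 accessions at ZT1, where 11.8% of pairs did, and in 5 of 13 at ZT7, where 8.8% did. At ZT13, WL lay below WW in 4, 3, 3 and 1 of 14 accessions for BraA05g15390R, BraA02g42080R, BraA08g22810R and Bo7g114970, beside 10.9% of pairs. In the same order, WL lay above in 1, 1, 0 and 2, beside 10.3%. At ZT7, BraA05g15390R had WL above in 3 and below in 2 of 13 accessions, beside 8.80% and 8.83% of pairs. In Ca at ZT19, WL libraries of BraA05g15390R had 5.32, 2.60 and 5.02 log2 FPKM and WW libraries 5.08, 4.96 and 5.06. The difference of −0.72 thus came from 1 WL library, replicate 2, which was among those matching another time point (ZT7). The difference in mean log2 FPKM without that library was 0.14.

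Both calls for BraA05g15390R depended on which libraries were kept. Without the libraries matching another time point, which left 12 accessions, the difference was −0.23 for the level (limma adjusted p = 0.079) and −0.81 at ZT19 (0.078). Without replicate 1 it was −0.33 for the level (0.019) and −0.67 at ZT19 (0.087), and without replicate 2 it was −0.68 at ZT19 (0.17). Calls over all genes also fell in these fits. At ZT19 they numbered 2 without the matching libraries, 2 without replicate 1 and 0 without replicate 2, against 2148 with all libraries, and for the level 8483, 7715 and 10687, against 15804.

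At the other time points BraA05g15390R did not pass. The WL minus WW difference was −0.20 ± 0.12 at ZT1, 0.04 ± 0.13 at ZT7 and −0.47 ± 0.15 at ZT13 (log2 CPM, ± SE), with 9, 6 and 13 of 15 accessions lower and adjusted p values of 0.22, 0.86 and 0.047 (limma). Of all genes, 14.1%, 6.26% and 2.67% were called at these time points. The difference of BraA05g15390R between time points itself passed the F test (3 degrees of freedom; limma adjusted p = 0.0078), which 3.34% of genes did. That call was lost when any of 11 single accessions was left out, with adjusted p from 0.010 to 0.026 in these fits, and without replicate 1 (0.25), without replicate 2 (0.39) or without the libraries matching another time point (0.011). Over all genes, 140, 170 and 545 were called in the last 3 fits, against 2266 with all libraries. A change of the difference with time is what the response scores hold, so this call is not separate from the choice of members.

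Bo7g114970 differed in sign over the day without passing. Its WL minus WW difference was 0.29 ± 0.11 at ZT1, 0.34 ± 0.09 at ZT7, 0.13 ± 0.11 at ZT13 and −0.34 ± 0.18 at ZT19 (log2 CPM, ± SE). WL was higher in 10, 12 and 9 of 15 accessions at ZT1, ZT7 and ZT13 and lower in 10 at ZT19, and the adjusted p values were 0.063, 0.020, 0.45 and 0.24 (limma). The F test of a change between time points gave an adjusted p of 0.029 for this gene, and passed at 0.0087 without DH20. In single accessions the difference at ZT19 ran from −2.09 in Yu, whose WL group holds the library with 2 counts, to 1.06 in DH20, whose WW group holds the other. Replicate 1 of that DH20 group matched another time point, and no value without it is given.

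The high pair moved little. BraA02g42080R differed by 0.05, −0.01, −0.14 and −0.14 at ZT1, ZT7, ZT13 and ZT19, and BraA08g22810R by 0.12, 0.05, −0.07 and −0.08 (log2 CPM, WL minus WW). The widest of their 95% intervals, that of BraA02g42080R at ZT13, was −0.31 to 0.02. Their F tests of a change between time points gave adjusted p values of 0.15 and 0.17 (limma).

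All 4 members had an estimate below 0 at ZT19, with a median of −0.24 beside 0.00 over all genes tested, and 1 of 4 passed. All 4 were also below 0 at ZT19 in Gr, and scores of nearly all these accessions went into the grouping. The shared sign is therefore part of how the members were chosen and is a description only.

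**Figure D4:**
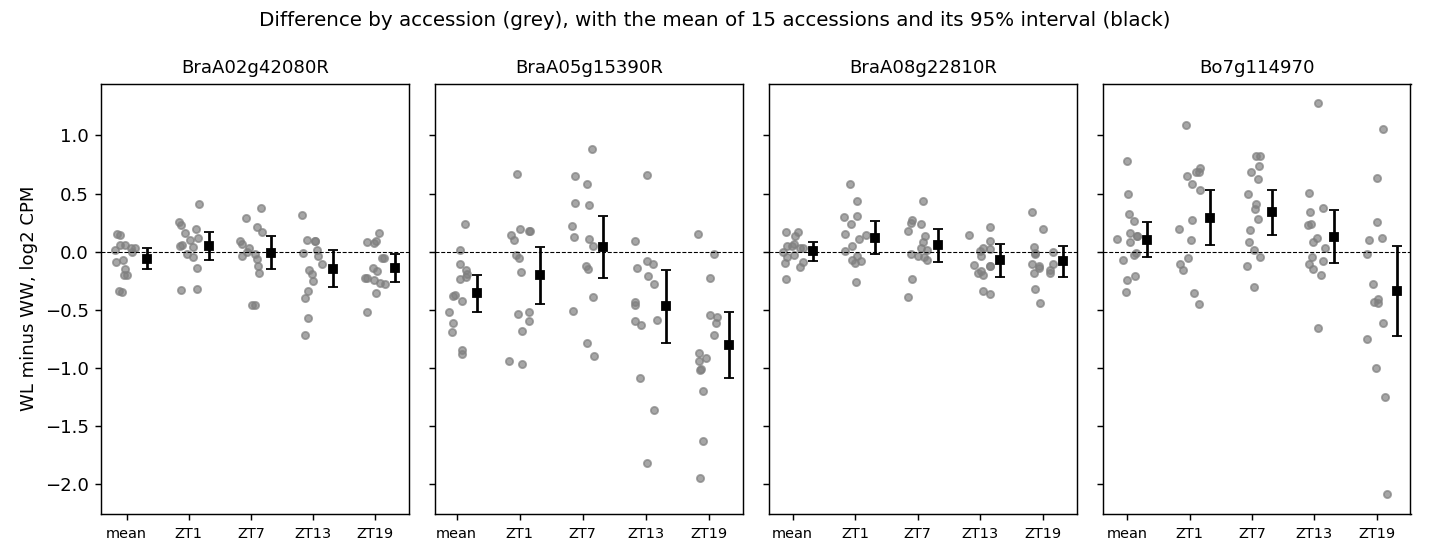
WL minus WW difference in log2 CPM (vertical axis) averaged over the day and at each time point (horizontal axis), with 1 grey point for each of 15 accessions without Gr and the mean with its 95% interval in black. BraA05g15390R at ZT19 lies at −0.80 with 14 of 15 points below 0, while the means of BraA02g42080R and BraA08g22810R stay between −0.14 and 0.12.

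The response did not differ detectably between accessions. The limma F test of the level difference among the 15 accessions (14 degrees of freedom) gave an adjusted p of 0.085 for BraA02g42080R, 0.27 for BraA05g15390R, 0.25 for BraA08g22810R and 0.31 for Bo7g114970, where 2.46% of genes passed. With at most 3 libraries a group, this does not show that the accessions respond alike.

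Within single accessions, edgeR called 1 of 60 level differences at 0.01, with a background of 0.642%, and 4 at 0.05, with a background of 4.16%. The call was a rise of Bo7g114970 in DH12 by 0.76 ± 0.13 (log2, ± SE; edgeR adjusted p = 0.0010), in an accession where 5.83% of genes were called. The other 3 at 0.05 were lower values, of BraA05g15390R in Br by −0.84 (0.012) and in Ca by −0.83 (0.047), and of BraA02g42080R in Br by −0.36 (0.029). Br and Ca could not be fitted without the libraries matching another time point.

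The rise in DH12 was largest at ZT13. Its WL libraries had 3.13 and 3.39 log2 FPKM at ZT13, against 1.81, 2.01 and 2.22 in WW, and the difference of 1.24 ± 0.26 was the 1 call of 60 at that time point (log2, ± SE; edgeR adjusted p = 0.0057), with a background of 0.429% over accessions and 4.46% in DH12. At ZT1 the WL libraries had 2.44, 2.30 and 2.00 log2 FPKM, against 1.78, 1.79 and 1.42 in WW. At ZT7 they had 2.17, 2.14 and 1.91 log2 FPKM in WL, against 0.86, 1.88 and 1.53 in WW.

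WL libraries were above WW libraries at these 3 time points, as in 1.27% of genes in DH12 whose mean log2 FPKM exceeded 0, and at ZT19 they overlapped, with 1.85, 2.18 and 2.54 in WL against 1.97, 1.51 and 1.27 in WW. Its WL profile over the day was the 1 called in that test (edgeR adjusted p = 0.0071), with 15.5% of genes called in DH12. Of the DH12 libraries, WW replicate 1 at ZT13 and WL replicate 1 at ZT19 matched another time point. Without both, the level difference was 0.79 (edgeR adjusted p = 0.0018) and that at ZT13 was 1.18 (0.024). Leaving out each replicate in turn gave level differences of 0.71 to 0.81 with adjusted p from 0.016 to 0.041, so the call was lost each time. The ZT13 call was lost likewise (0.058 to 0.092), as was that of the WL profile (0.054 to 0.15, and 0.012 with the replicate block).

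edgeR called 0 of 60 differences at ZT1, ZT7 and ZT19, and 0 of 60 changes between time points, at an adjusted p of 0.01. The backgrounds at that threshold were 0.0154%, 0.0457%, 0.000366% and 0.0372%. At an unadjusted p under 0.05 the members' numbers were 4, 6, 10 and 7 of 60, where 10.1%, 10.1%, 9.4% and 9.05% of all tests were. DESeq2 called 0 changes between time points as well, and was not run on single time points.

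**Figure D5:**
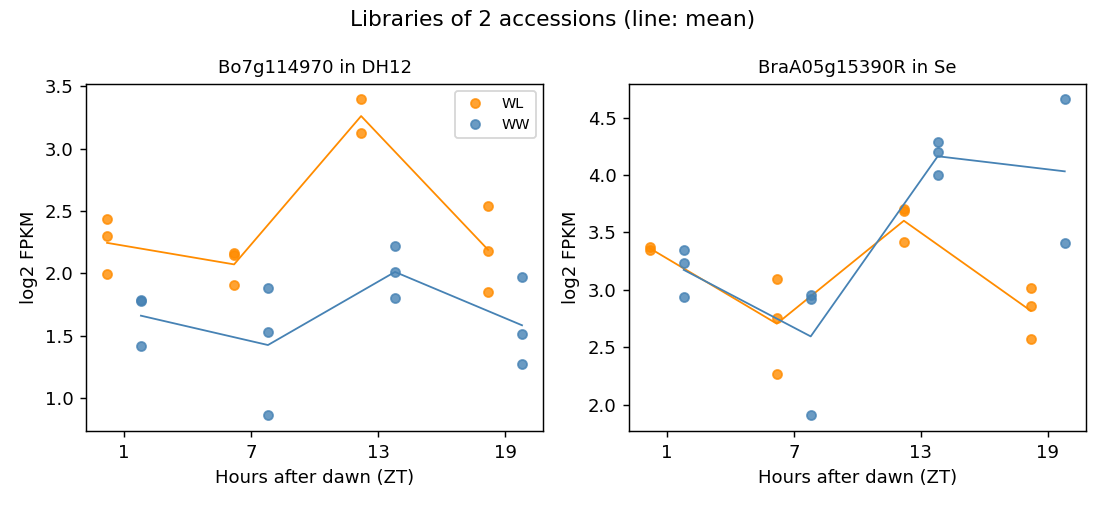
log2 FPKM (vertical axis) by hours after dawn (horizontal axis) of Bo7g114970 in DH12 and of BraA05g15390R in Se, with WL in orange left of WW in blue and lines through the means. In DH12 at ZT13 the WL points, 3.13 and 3.39, lie above the WW points, 1.81 to 2.22. In Se the WW points at ZT13 and ZT19 lie above those at ZT1 and ZT7, with 3.41 against 3.35 at the closest.

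Over the means of all groups of accession, treatment and time point, with the mean of each accession subtracted, BraA02g42080R and BraA08g22810R had a Pearson correlation of 0.86 and BraA05g15390R and Bo7g114970 of 0.67. The other 4 pairs lay between 0.33 and 0.54. The level differences between WL and WW over 15 accessions gave another order, with 0.88 for BraA02g42080R and BraA05g15390R, 0.85 for BraA02g42080R and BraA08g22810R and 0.53 for BraA05g15390R and Bo7g114970. These are descriptions over groups or accessions whose values share libraries, and the part of reads shared between near copies in them was not tested. The members were also grouped by their response scores, so some likeness between them is part of how they were chosen.

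The genes most like each member, by the same correlation among 67996 genes, were Bo4g184810 (0.92) and Bo11634s010 (0.89) for BraA02g42080R and Bo4g184810 (0.93) and BraA10g17170R (0.90) for BraA08g22810R. For BraA05g15390R they were BraA03g17390R (0.89) and Bo3g027200 (0.89), and for Bo7g114970 they were BraA03g55660R (0.89) and Bo1g078690 (0.86). The same gene of the BnC subgenome, Bo4g184810, thus came first for both members of the high pair.

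Lists of related terms in the supplement, which the study chose on these libraries in other accessions, gave other counts. Of 4 genes listed for response to temperature stimulus in Av, tested over 14 accessions without Av and Gr, 1 was called higher and 0 lower in level, 1 higher and 1 lower at ZT1, and 0 at ZT7, ZT13 and ZT19 (limma). In the same fit, 10.4% of all genes were called higher in level and 13.4% in either direction at ZT1. Their WW and WL profiles were called for 4 of 4, where 53.6% and 48.3% of all genes were. Of 9 genes listed for regulation of response to water deprivation in St, tested without St and Gr, 5 were called lower and 0 higher in level, and 4 lower at ZT19, 1 at ZT13, 2 at ZT7 and 0 at ZT1. Over all genes in that fit, 11.5% were called lower in level, 2.58% at ZT19, 0.791% at ZT13 and 3.94% at ZT7. Their WW profiles were called for 9 of 9 and WL profiles for 7 of 9, where 54.6% and 50.2% of all genes were. The median level difference was 0.18 for the temperature list and −0.43 for the water deprivation list (log2 CPM, WL minus WW).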

How the data were processed

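RNA was sequenced as paired-end reads, which the authors trimmed with Trimmomatic 0.33, mapped with HISAT2 2.1.0 to the joined genomes of B. rapa R500 and B. oleracea TO1000, and counted with featureCounts on the reverse strand, adding a fraction of each multiply aligned read to every place. The deposited estimated counts were not normalized. The deposited log2 FPKM values were normalized by the authors with edgeR within each accession, without genes that did not vary, so levels set across accessions come from tables normalized separately. 354 of 355 listed libraries were analysed, and replicate 1 of WW at ZT13 in Br was not analysed here. Columns without a sample numbered 0.

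After rounding, the counts of each accession were modelled in edgeR 4.0.16 (glmQLFit, glmQLFTest, TMM, filterByExpr by group, 8 group means, no block), with Benjamini-Hochberg adjustment over all genes and calls at 0.01. The test over accessions used limma 3.58.1 (eBayes with trend) on log2 CPM (TMM over all libraries, prior count 2) with 1 value for each of 15 accessions, so a fold change of a low gene is understated. F tests had accession as a fixed term. A pattern is the change of the WL minus WW difference between time points. The steps were tested on simulated data. Libraries were matched to time points of their accession, WL and WW pooled, by correlation over the genes varying most between time points. Replicate pairs differed by more than sampling noise, so none was a copy.

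The members and lists were chosen with earlier results of these data known. Named genes were the 4 members and, for each, the 2 genes with the highest correlation of group means. The settings varied were the size factors (RLE), the low-count filter (none), the prior count (0.5), the scale (deposited log2 FPKM), the threshold (0.05), the tool (DESeq2 1.42.0), a block for the replicate number, and the libraries kept: without each replicate, each accession, Qu and Ze, or those matching another time point. R 4.3.3 was used. The total count sets the precision of each value, and no interval for single libraries was computed. p-values measure the spread between these libraries or between accessions.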

Additional observations from a re-analysis of the deposited data

Results flagged for a closer look

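The WL minus WW difference of BraA05g15390R differed between time points over 15 accessions (limma F test, adjusted p = 0.0078), with −0.20 at ZT1, 0.04 at ZT7, −0.47 at ZT13 and −0.80 at ZT19 (log2 CPM), and 14 of 15 accessions lower at ZT19. Without the libraries matching another time point the adjusted p was 0.011 over 12 accessions and the ZT19 difference was −0.81, in a fit that called 545 genes, against 2266 with all libraries. Without replicate 1 the limma adjusted p was 0.25, and without replicate 2 it was 0.39. The call was also lost without some single accessions, with a limma adjusted p of 0.026 without Se. Of all genes tested, 3.34% passed this test. Response scores of nearly all these accessions went into the choice of members. The change with time is therefore not separate from that choice and is a description.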

How the results depend on the processing

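With RLE size factors, a prior count of 0.5, the deposited log2 FPKM or no low-count filter, the shared calls and their directions were the same, apart from the level of BraA08g22810R, which was 0.00 and became −0.0030 without the filter. Counts of calls in single accessions moved with the threshold and the tool. At an adjusted p of 0.05 there were 4 level, 9 WW diel and 2 WL diel calls of 60, and with DESeq2 4 level (1 higher and 3 lower), 7 WW diel and 2 WL diel calls. The 3 lower level calls of DESeq2 were all in Br, and its WW diel calls included all 4 genes in Ab. The share of all genes called by DESeq2 is not given here, so its counts have no background beside them. By the median over accessions the replicate numbers did not pair the samples (correlation of deviations −0.017 for the same number and 0.0084 for others). Same-numbered libraries were more alike than others in 3 of 16 accessions, Ab (0.093 against −0.038), Da (0.055 against −0.023) and Mu (0.016 against −0.0079). With the replicate block the WL diel calls were 0, and the level, time-point and WW diel calls were 1 each. For fits in single accessions with this block or with libraries left out, the share of all genes called is not given here. Fewer member calls in those fits cannot be told apart from fewer calls over all genes. Without each replicate, level calls were 0 to 1 (without replicate 3, BraA05g15390R in Br and not Bo7g114970 in DH12), time-point calls 0 to 1, WW diel calls 0 to 0 and WL diel calls 0 to 0; shared WL response calls, 2 of 20 with all libraries, were 0 to 2, and shared pattern calls 0 to 1. Without libraries matching another time point, time-point calls were 0, shared response calls 0 and shared pattern calls 0, and the level of BraA05g15390R was −0.23 and its ZT19 difference −0.81, neither called. Without Qu and Ze, shared pattern calls were 0, and with each accession left out they were 0 to 1. Without each replicate the difference of BraA05g15390R was −0.36 to −0.33 for the level and −0.97 to −0.67 at ZT19, and with each accession left out −0.40 to −0.32 and −0.87 to −0.72.

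Values close to 0 changed sign. Without libraries matching another time point, BraA02g42080R was 0.022 for the level and 0.11 at ZT7, and BraA08g22810R was 0.0045 at ZT13. With replicates left out, BraA02g42080R ran from −0.062 to 0.046 at ZT7 and from −0.25 to 0.012 at ZT19, BraA05g15390R from −0.20 to 0.22 at ZT7, and BraA08g22810R from −0.0037 to 0.029 for the level and from −0.12 to 0.034 at ZT19. With accessions left out, BraA02g42080R ran from −0.034 to 0.025 at ZT7, BraA05g15390R from −0.02 to 0.11 at ZT7 and BraA08g22810R from −0.0075 to 0.02 for the level. With replicates or accessions left out, BraA08g22810R ran from −0.095 to 0.00056 at ZT13. Leaving out replicates 1 and 2 and the libraries matching another time point emptied groups, so 13, 14 and 12 of 15 accessions could be fitted. Depth limits Bo7g114970 most, at 2 to 601 counts.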
